A study of Mus musculus with 59 samples.

Results

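The 33 genes described here encode the proteins that make and dissolve blood clots: 17 clotting factors and their scaffolds, 9 inhibitors of clotting and 7 proteins of fibrinolysis. They were chosen by gene symbol, from general knowledge of the pathway. The rule uses no measured value, but earlier results of these data were known when it was made. All 33 were found among the 24972 genes listed in each of 4 deposited tables. The tables hold RNA-seq values of 59 mouse libraries in 17 groups. Liver and soleus, a slow skeletal muscle, came from male C57BL/6 mice of 41 weeks on a standard diet, either untreated (Ut) or given potassium hydroxycitrate (HC), an inhibitor of ATP citrate lyase (ACLY), at 7.5 g per kg of diet for 21 weeks, with 5 libraries in each group. AML12 cells, a single hepatocyte line derived from the liver of a mouse carrying a transforming growth factor alpha transgene and grown here with dexamethasone, were transfected with a control siRNA (siC) or with one directed at Acly (siAcly). They were then left untreated or exposed for 16 h to HC at 1 mM, SB-204990 (SB) at 10 µM or bempedoic acid (Bemp) at 30 µM, all inhibitors of ACLY, with 3 libraries in each of the 8 groups. Gastrocnemius, a mostly fast hind limb muscle, came from wild-type male mice of about 6 months without injury (C) or after 10 µM cardiotoxin (CTX), a snake toxin that destroys muscle fibers, injected in the left hind limb and followed for 2 or 30 days post injury (DPI) without or with HC at 7.5 g per kg of diet (CTX-HC), with 3 libraries in each of the 5 groups.

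Values are gene counts that the authors scaled within each table by the median of ratios, so they are called normalized values below. The 4 tables were scaled separately and were never compared by a test. Depth, estimated from the value that a single read takes, was 7.69 to 13.1 M reads (M, mega) in liver, 8.93 to 11.2 M in soleus, 7.31 to 16.3 M in AML12 and 16.0 to 34.9 M in gastrocnemius. Differences were tested with limma on log2(value + 1) across all genes of a table that reached 10 in a number of libraries equal to the size of the smallest group, and a gene passed at a Benjamini-Hochberg adjusted p under 0.05. Fold changes on this scale understate the change of genes with low values. Per the study, each gastrocnemius library is a sample of 1 mouse. The labels do not say that the AML12 libraries of a group came from separate cultures, so p-values there measure only the spread between libraries.

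Coagulation starts when tissue factor (F3), a membrane protein of cells outside the blood, meets factor VII, and it proceeds through a series of proteases to thrombin (F2), which cuts fibrinogen (Fga, Fgb and Fgg) into fibrin that factor XIII crosslinks. Antithrombin (Serpinc1), heparin cofactor II (Serpind1), tissue factor pathway inhibitor (Tfpi) and the protein C system (Proc, Pros1, Procr, Thbd) hold the process in check, and plasmin, made from plasminogen (Plg) by the activators Plat and Plau, dissolves fibrin. Hepatocytes make most of the circulating proteins, endothelial cells carry Thbd, Procr, Tfpi and Vwf, and macrophages and platelets hold the factor XIII A subunit (F13a1).

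The promoters of 4 members are shown because they belong to the members that passed a test in the role group with most such members: Procr and Serpind1, inhibitors that were higher after siAcly, and F7 and F13a1, factors that were higher in injured muscle with HC. The sequences are from RefSeq on GRCm38.p6 and end at the base before the annotated start, and capitals mark matches to 4 searched letter strings on either strand: the HNF1 string GTTAAT, the STAT string TTCNNNGAA, the AP-1 string TGANTCA and the core TTGCNNAA bound by CCAAT/enhancer proteins. The windows are chr2:155750967-155751116 on the plus strand for Procr, cut to 150 bases because another annotated start lies 100 bases upstream, chr16:17331121-17331370 on the plus strand for Serpind1, chr8:13025784-13026033 on the plus strand for F7, and chr13:37050245-37050494 on the minus strand for F13a1.
Procr: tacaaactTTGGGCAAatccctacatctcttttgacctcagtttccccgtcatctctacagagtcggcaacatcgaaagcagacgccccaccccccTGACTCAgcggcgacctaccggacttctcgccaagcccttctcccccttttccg
Serpind1: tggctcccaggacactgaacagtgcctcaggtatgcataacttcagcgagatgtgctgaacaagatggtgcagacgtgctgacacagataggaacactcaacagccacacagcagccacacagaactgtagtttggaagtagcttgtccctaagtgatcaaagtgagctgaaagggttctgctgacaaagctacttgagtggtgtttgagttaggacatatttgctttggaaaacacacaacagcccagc
F7: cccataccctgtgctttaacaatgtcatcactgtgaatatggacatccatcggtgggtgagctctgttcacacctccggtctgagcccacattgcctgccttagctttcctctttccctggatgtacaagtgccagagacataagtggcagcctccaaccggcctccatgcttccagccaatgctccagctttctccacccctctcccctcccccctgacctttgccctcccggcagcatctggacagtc
F13a1: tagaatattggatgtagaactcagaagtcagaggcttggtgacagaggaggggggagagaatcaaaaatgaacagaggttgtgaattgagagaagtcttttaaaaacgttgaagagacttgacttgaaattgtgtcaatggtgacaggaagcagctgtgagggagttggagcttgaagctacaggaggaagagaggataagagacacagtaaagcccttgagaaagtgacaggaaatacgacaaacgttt
The Procr window held an AP-1 match and, on the opposite strand, a TTGCNNAA match, while the other 3 windows held none of the 4 strings. Of the 33 members, 25 had a promoter of 300 bases in the table used, with 27 promoters in all, and Kng1, Vwf, Proc, Thbd, Serpina10, Plg, Plat and Plau had none. The HNF1 string was found in 6 of the 27 member promoters (22.2%) and in 7.1% of all 32851 promoters. TTGCNNAA was found in 9 (33.3%) against 10.8%, the AP-1 string in 5 (18.5%) against 7.81%, and the STAT string in 5 (18.5%) against 8.3%. These are matches of letters only, and no test was made of them.

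The members divided by table into those of the liver and those of the tissues. In liver 29 of the 33 passed the filter, in AML12 24, in gastrocnemius 18 and in soleus 17. F3, Fga, Fgb, Fgg, Pros1, Thbd, Plau and Vtn passed in all 4 tables, and F9, F13b, Klkb1 and Serpina10 passed in liver alone. The 4 members that did not pass in liver, F13a1, Procr, Plat and Plaur, were under 20 in every liver library, and all 4 passed in both muscles. In the heatmap of group means, where brighter is higher, the liver columns are bright for most rows. The muscle columns are bright for few, among them Thbd, Vwf, Vtn and Plau.

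**Figure D1:**
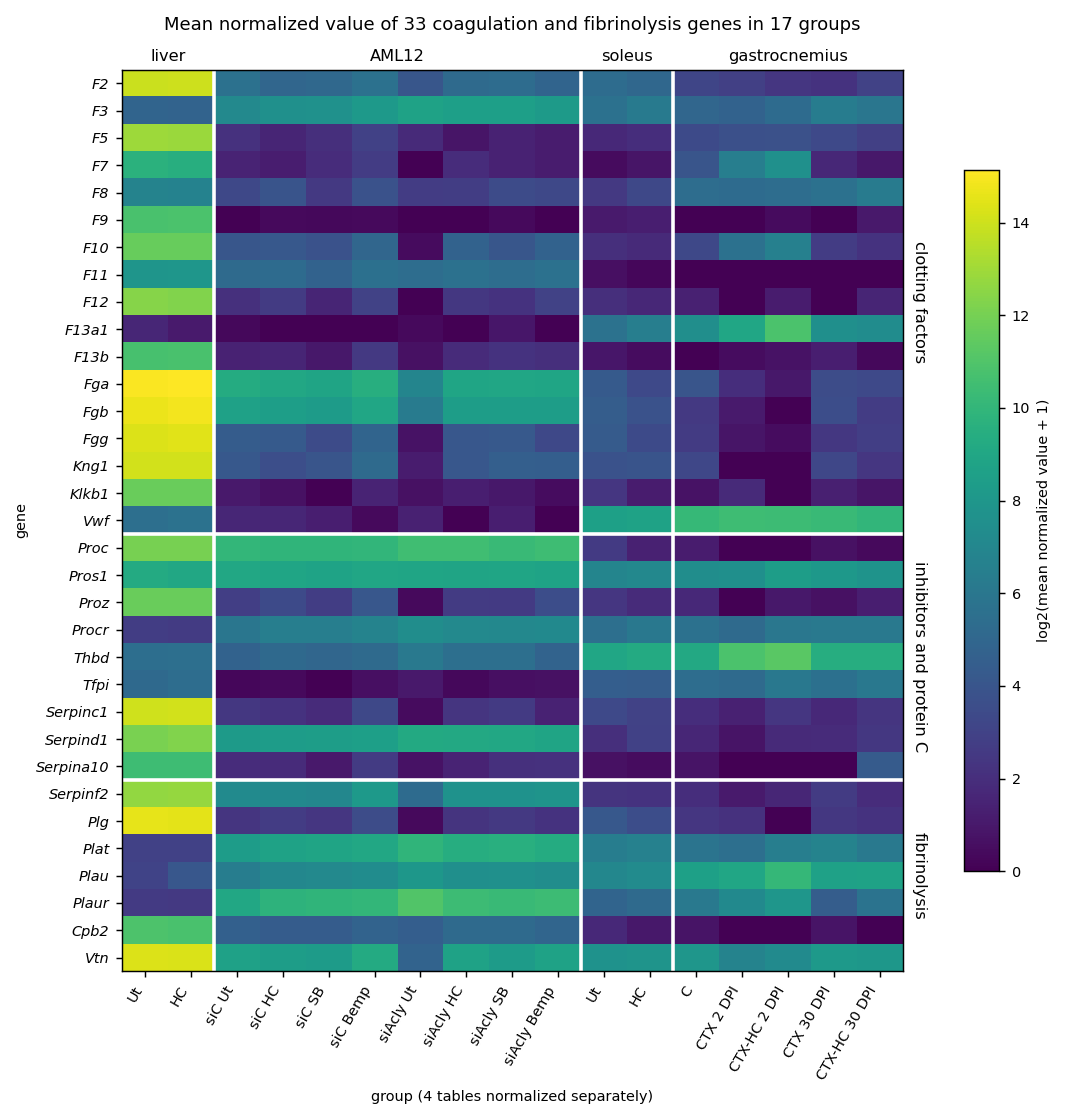
Heatmap of the mean normalized value, as log2(mean + 1), of the 33 members (rows, by role) in the 17 groups (columns, in the 4 separately scaled tables). 20 members exceed 1000 in every liver library, whereas 7 are under 10 in every AML12 library and 9 are under 10 in every soleus library.

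Per kilobase of exon, the fibrinogen chains and Vtn led the members in untreated liver. The length used was the union of all annotated exons of a gene, which can exceed the length of a single transcript. For Serpinc1 it was 8.55 kb and for Fga 3.01 kb, so the order depends on the annotation. Fga had the highest mean level at 11479 ± 745 per kb (SD, n = 5), Fgg was at 9957 ± 753 and Fgb at 7092 ± 683. Vitronectin (Vtn), an adhesive plasma protein, lay between Fga and Fgg at 10362 ± 818 per kb, and its range over the 5 libraries overlapped those of both. Plasminogen followed at 6550 ± 848 per kb, kininogen (Kng1) at 5530 ± 754 and prothrombin (F2) at 3364 ± 276. Kng1 has a near-identical copy in the mouse, Kng2, so its counts are uncertain. The lowest of the members made by hepatocytes was F11, at 106.6 ± 31.6 per kb, and then came a step down to the members of other cells: Thbd at 11.9 ± 3.95, F3 at 11.4 ± 3.87, Plau at 3.01 ± 1.06 and Plat at 1.06 ± 0.449 per kb. In AML12 siC Ut cells the order was different. Proc led at 427 ± 45.9 per kb, Fga was at 208 ± 115 and Plaur, the urokinase receptor, at 207 ± 74.04. In both muscles Thbd, Plau and Vtn were the first 3: in untreated soleus Thbd was at 131 ± 20.3, Vtn at 102 ± 12.2 and Plau at 54.5 ± 6.31 per kb, and in uninjured gastrocnemius (n = 3) Plau was at 164 ± 27.4, Thbd at 154 ± 41.1 and Vtn at 123 ± 23.4 per kb.

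Chronic HC was first compared with Ut in liver, the organ that secretes most clotting proteins. None of the 29 members tested passed, and percent called among all 11497 genes was 0, with 488 genes and 1 member at an unadjusted p under 0.05 by limma. The log2 fold changes of the members ran from -0.18 for Pros1, the cofactor of activated protein C, to 1.13 for Plau, with a median of 0.02, beside -0.01 over all genes tested, and 16 members had a higher and 13 a lower mean with HC. The clotting factors were held within a narrow range, from -0.17 for F7 to 0.14 for Vwf, the adhesive protein of platelets and endothelium that carries factor VIII.

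The 3 fibrinogen chains showed how close the groups were. Fga lay between 30363 and 39499 in the 5 HC livers and between 32223 and 37032 in the 5 Ut livers, a log2 fold change of 0.06 (95% interval -0.18 to 0.30). For Fgb the values were 30368, 26035, 32998, 27522 and 31407 with HC and 26552, 25397, 30050, 29251 and 23847 in Ut. The HC values overlapped the Ut values, and the log2 fold change of 0.13 (SE 0.11) did not exceed their spread. Fgg had a log2 fold change of 0.09 (SE 0.10). For thrombin's own gene, F2, the groups overlapped too, with 14795 to 17457 in HC and 13527 to 17066 in Ut. The intervals of Fga, Fgg and F2 lay within 0.30 on the log2 scale on either side of 0.

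The inhibitors and the plasmin system made in liver were equally close. Serpinc1 differed by 0.04 (95% interval -0.16 to 0.24), Serpind1 by 0.14 (-0.08 to 0.35) and Proc by 0.00 (-0.23 to 0.23). None of these intervals excluded 0. Plg differed by -0.02, the plasmin inhibitor Serpinf2 by 0.03, and Cpb2, the carboxypeptidase that slows fibrinolysis, by -0.13 (95% interval -0.34 to 0.08). Tfpi, which endothelial cells express, was at 49.0, 42.8, 36.6, 42.7 and 38.1 with HC and at 42.5, 37.2, 18.1, 42.0 and 33.7 in Ut. One Ut liver was well below the others, the groups overlapped, and the log2 fold change was 0.31 (95% interval -0.16 to 0.79).

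Plau, the urokinase-type plasminogen activator, was the 1 member whose liver groups did not overlap. Its values were 18.3, 20.3, 12.9, 19.5 and 10.7 with HC and 9.59, 7.31, 8.44, 7.35 and 2.95 in Ut. All 5 HC livers lay above all 5 Ut livers, but the lowest HC and the highest Ut value were close and all 10 were low. Plau reached the filter value of 10 in the HC livers alone. It was thus tested only through the group where it was high, so the separation is no support for a difference. The log2 fold change was 1.13 (95% interval 0.42 to 1.83, adjusted p = 0.995 by limma), so Plau did not pass; among all genes tested 0.618% had groups that did not overlap. The 5 fibroblast markers, chosen because stromal cells can express Plau, summed to 1286 to 3101 with HC and 1214 to 1632 in Ut, and the 8 hepatocyte markers found summed to 892830 to 1162500 and 748090 to 994390. The part of other cells in the Plau values was not tested. In bulk tissue, fewer cells of a type and less RNA per cell cannot be told apart. Of 32 further genes of clotting and fibrinolysis listed as pathway partners, 24 were tested in liver and none passed. The most abundant were Hrg, a histidine-rich plasma glycoprotein, at -0.06, and Serping1, the inhibitor of C1 and of factor XII, at -0.17.

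**Figure D2:**
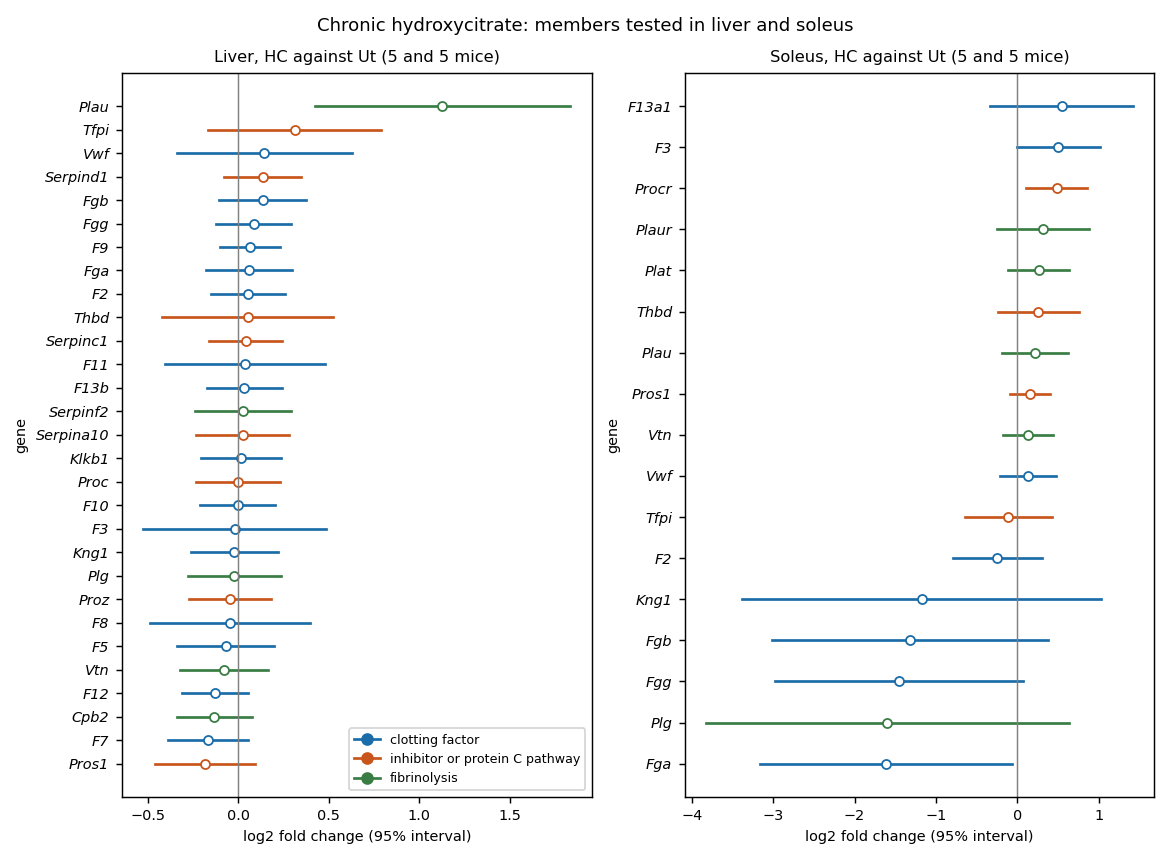
Log2 fold change (HC against Ut, x axis) with its 95% interval for each member tested in liver (left) and soleus (right), 5 libraries in each group. In liver the points sit near 0 except Plau at 1.13, and in soleus the plasma protein members lie to the left and the tissue members mostly to the right, with none passing the test.

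In AML12 cells the knockdown was checked first. Acly was between 2576 and 3860 in 11 of the 12 siC libraries and between 215 and 599 in the 12 siAcly libraries, a log2 fold change of -2.89 (SE 0.24, adjusted p = 1.41e-06 by limma). The library labelled siC Bemp 11 had 404, inside the siAcly range and against its label, so the members that passed over the 4 treatments, and the values named in the Bemp comparisons, are also given without it. A further division concerned some of the hepatocyte members, namely Fga, Fgb, Serpinf2 and Vtn. Fga was between 1012 and 1307 in 8 libraries, between 129 and 500 in 9, and between 14.6 and 80.0 in 7. The 7 low libraries were the ones that the labels number 81 to 87, 3 of them siC and 4 siAcly, and no siC Ut library was among them. Fgb and the plasmin inhibitor Serpinf2 fell into the same 3 bands without overlap, and Vtn was at 803 to 1197, 29.7 to 247 and 1.68 to 46.0. Within the siAcly HC group alone, Fga spanned 83.9-fold and Vtn 126-fold between the highest and lowest library. The other members made by hepatocytes were not alike in this. Over all AML12 libraries Pros1 spanned 1.61-fold, Proc 1.93-fold, F11 3.28-fold and Serpind1 3.61-fold, whereas F2 spanned 46.2-fold. Albumin, the defining secreted protein of hepatocytes, was detected in all AML12 libraries but at uneven levels. It was at 11853 to 13843 in the 8 libraries with the highest Fga, 1225 to 5522 in the 9 of the middle band and 372 to 1717 in the 7 low libraries.

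Across the 4 treatments, 12 siAcly libraries were compared with 12 siC libraries to ask what loss of Acly does in hepatocyte-like cells. Of the 24 members tested, 4 rose and none fell: 3 of 7 inhibitors (Proc, Procr and Serpind1), 1 of 7 fibrinolysis members (Plat) and 0 of 10 clotting factors. Among all 12296 genes 336 rose and 250 fell, so 2.73% were called higher and 4.77% called in either direction. The median log2 fold change of the members was -0.42, beside -0.01 over all genes, with 14 members, among them the fibrinogen chains, at lower fitted means that did not pass. No member had groups without overlap, as was the case for all but 0.0569% of the genes.

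Proc encodes protein C, the protease that inactivates factors V and VIII. Its lowest, median and highest values were 815, 941 and 1222 in siC and 1112, 1440 and 1572 in siAcly. The groups overlapped, with 8 of 12 siAcly libraries above the highest siC library, which was Bemp 11, and 10 of 12 above the next. The log2 fold change was 0.45 (SE 0.08, adjusted p = 0.00438), and 0.48 (adjusted p = 0.00192) without Bemp 11. Procr, the endothelial receptor that presents protein C to thrombomodulin, ran from 46.4 through a median of 83.5 to 139 in siC and from 84.6 through 157 to 245 in siAcly. Here 7 of 12 siAcly libraries exceeded the highest siC value, again that of Bemp 11. Its log2 fold change was 0.73 (SE 0.20, adjusted p = 0.0393), and 0.78 (adjusted p = 0.0394) without Bemp 11. It was the least stable of the calls, since it held in 10 of the 24 fits that left out 1 library (adjusted p 0.0119 to 0.0886); it was lost without siAcly libraries 15, 19, 22, 84, 85, 86 or 87 or siC libraries 2, 4, 5, 7, 8, 10 or 13.

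Serpind1 encodes heparin cofactor II, which inhibits thrombin. It ran from 218 through 329 to 538 in siC and from 384 through 503 to 786 in siAcly. Only 4 siAcly libraries exceeded the highest siC library, Bemp 11, but 10 of 12 exceeded the next, at 405. The log2 fold change was 0.67 (SE 0.14, adjusted p = 0.0115), and 0.75 (adjusted p = 0.00377) without Bemp 11. Plat, the tissue-type plasminogen activator, ran from 266 through 424 to 596 in siC and from 446 through 626 to 1408 in siAcly. Its highest siC value was that of SB library 81, and 9 siAcly libraries lay above it. The log2 fold change was 0.79 (SE 0.17, adjusted p = 0.0117), and 0.80 (adjusted p = 0.0154) without Bemp 11. Proc, Serpind1 and Plat passed in each of the 24 fits that left out 1 library.

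The rise of these 4 members was seen within both series of library numbers, in fits with siRNA alone that were added after the data were seen. These are the libraries in which the 4 had passed, so the split is no separate support. Inhibitor treatment was left out of these fits, so libraries of different treatments stood as replicates. In the 7 libraries numbered 81 to 87, Plat was 557, 591 and 596 in siC and 857, 942, 971 and 1041 in siAcly, with no overlap, a log2 fold change of 0.71 (adjusted p = 0.000302). In the same libraries Proc differed by 0.39, Procr by 0.60 and Serpind1 by 0.69, all of which passed, as did F3 at 1.102 and Plaur at 0.43. Vtn passed in the lower direction there. This fit called 13.1% of all genes, against 4.77% in the fit over all libraries. In the 17 libraries numbered 1 to 23, Proc differed by 0.50, Serpind1 by 0.69 and Plat by 0.75, which passed together with Plau and Plaur, and Procr by 0.73, which did not (adjusted p = 0.0503). There 11.7% of all genes were called. Without Bemp 11 that fit called 9.23% of genes, and Proc at 0.53, Procr at 0.84, Serpind1 at 0.77 and Plat at 0.82 passed, again with Plau and Plaur. With the series as a covariate over all 24 libraries 7 members were higher, F3, Plau and Plaur being added to the 4, while the share of all genes called was 11.7% as well.

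**Figure D3:**
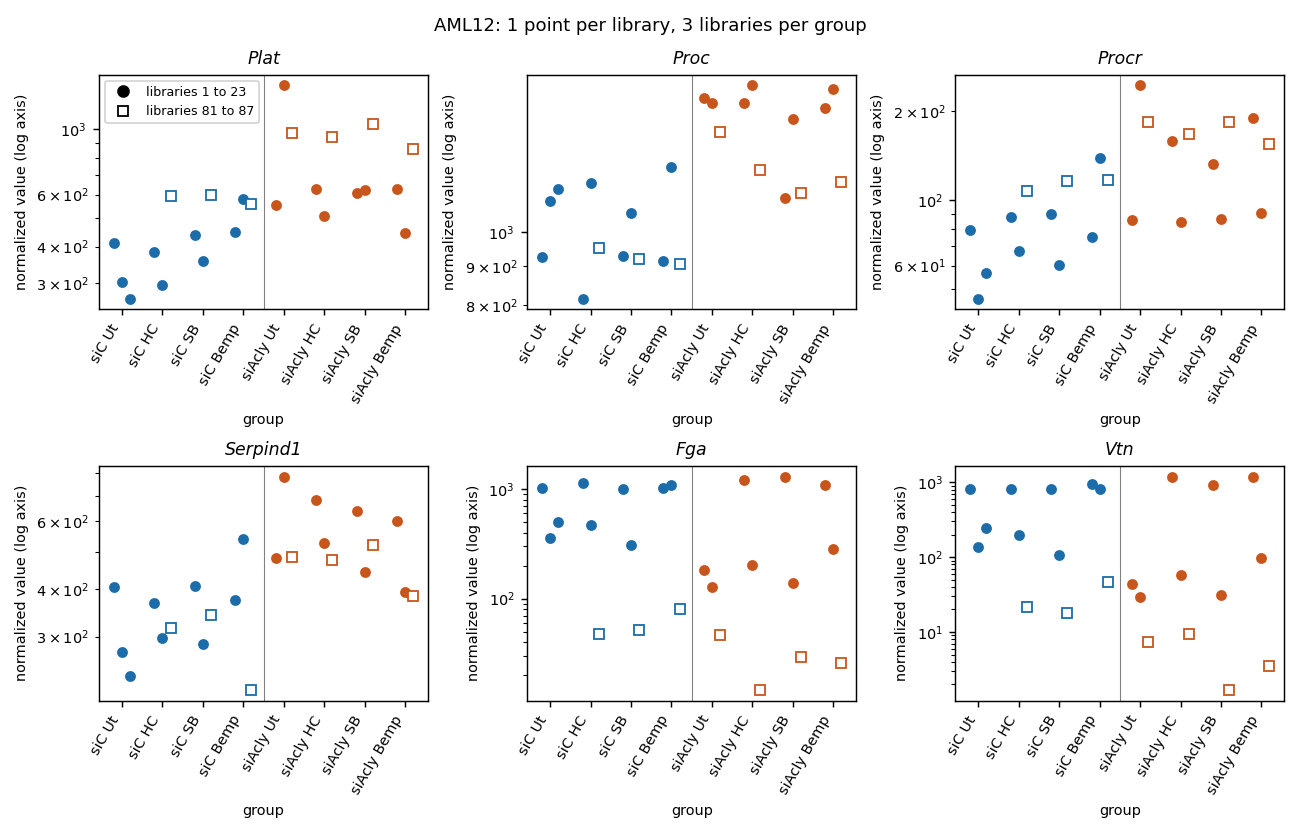
Normalized value (log axis) of Plat, Proc, Procr, Serpind1, Fga and Vtn in each AML12 library, by siRNA and treatment, 3 libraries per group; open squares are libraries 81 to 87 and filled circles libraries 1 to 23. The 4 members that passed sit higher in siAcly. Fga is lower in all libraries numbered 81 to 87 than in the rest, and Vtn is mostly lower there with some overlap. Both also vary widely among libraries 1 to 23.

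Tissue factor and the urokinase pair had higher means that did not pass. F3 was at 87.7, 207 and 418 (lowest, median and highest) in siC and 145, 403 and 642 in siAcly, a log2 fold change of 0.88 (95% interval 0.33 to 1.43, adjusted p = 0.0575). Plaur was at 417, 809 and 1486 in siC and 810, 1350 and 3462 in siAcly, a difference of 0.82 (adjusted p = 0.0622). The highest siAcly value was that of the Ut library 15, and the siC and siAcly ranges overlapped for both genes. Plau differed by 0.66 (adjusted p = 0.0664). Without Bemp 11 F3 passed, at 0.97 (adjusted p = 0.0483), which made 5 members, with 3.9% of all genes called. The fibrinogen chains and Vtn varied too widely for the comparison: Fga differed by -1.26 (95% interval -2.97 to 0.46), Fgb by -1.07 (-2.73 to 0.59), Fgg by -1.44 (-3.33 to 0.46) and Vtn by -2.00 (-4.23 to 0.23). These intervals run from a rise to a fall far larger than the changes that passed, so they do not settle the direction either. The remaining factors F2, F8, F10, F11, F12 and Kng1 differed by -1.30 to 0.29, and Pros1, Proz, Thbd, Serpinc1, Serpinf2, Plg and Cpb2 by -0.89 to 0.49, each with an interval that included 0. Of these Pros1 was the most narrowly measured, at -0.07 (95% interval -0.25 to 0.11).

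**Figure D4:**
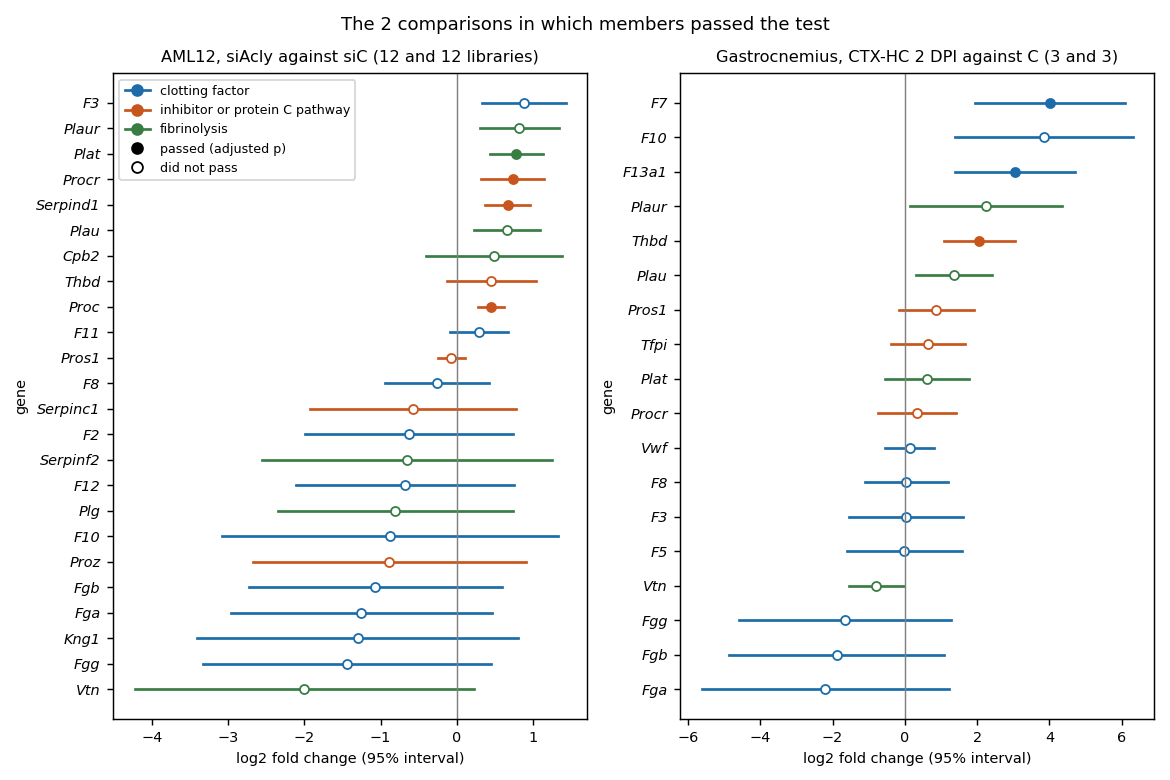
Log2 fold change with its 95% interval for each member tested in siAcly against siC over the 4 treatments (left, 12 libraries against 12) and in CTX-HC 2 DPI against C (right, 3 against 3); filled points passed the test. Proc, Procr, Serpind1 and Plat are filled on the left, and F7, F13a1 and Thbd on the right.

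Among the pathway partners, 20 were tested and 3 rose while 1 fell. Hgfac, the activator of hepatocyte growth factor and a relative of factor XII, rose by 0.33 (adjusted p = 0.0421). Ggcx, the carboxylase that makes the vitamin K-dependent factors active, fell by 0.42 (adjusted p = 0.0197) from a mean of 1637 to 1210. Anxa5, a phospholipid-binding annexin, rose by 0.26 (adjusted p = 0.00974). None of the 8 hepatocyte markers tested passed.

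Within single treatments the calls were few. No member passed in siAcly against siC in Ut, HC, SB or Bemp cells, where 0.187%, 0.00813%, 0% and 0% of genes were called, and 2332, 655, 374 and 484 genes, among them 8, 3, 1 and 1 members, had an unadjusted p under 0.05. Plat differed by 1.496 in Ut (95% interval 0.79 to 2.20, adjusted p = 0.0672), 0.72 in HC, 0.69 in SB and 0.24 in Bemp. Proc differed by a similar amount in each, 0.46, 0.55, 0.32 and 0.46. Serpind1 differed by 0.93, 0.77, 0.63 and 0.35, and Procr by 1.39, 0.60, 0.58 and 0.37. Without Bemp 11 the Bemp differences were 0.31 for Plat, 0.60 for Proc, 0.65 for Serpind1 and 0.56 for Procr, and no member passed. Each of the 4 thus had a higher mean in siAcly in all 4 treatments, and the differences between treatments passed for no member.

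The Ut cells, where no inhibitor was added, held members apart in both directions. In siAcly Ut 6 of the 24 members tested lay wholly above siC Ut and 5 wholly below, and groups did not overlap for 23.9% of all 12296 genes (1554 above and 1381 below). The 6 above were 3 inhibitors and 3 fibrinolysis members, and the 5 below were 4 clotting factors and Vtn. In what follows the siAcly Ut libraries are in the order 84, 14 and 15 and the siC Ut libraries in the order 1, 2 and 13. Plat was at 971, 551 and 1408 in siAcly and 412, 304 and 266 in siC. Plau was at 272, 157 and 332 against 110.6, 83.6 and 57.4, and Plaur at 1820, 881 and 3462 against 766, 429 and 432. Among the siAcly libraries 15 was highest and 14 lowest for these 3 genes. Procr was at 184, 85.4 and 244.7 against 79.2, 46.4 and 56.7, Serpind1 at 485, 482 and 786 against 405, 273 and 237, and Proc at 1361, 1511 and 1488 against 928, 1100.3 and 1143. Library 14 was close to the highest siC library for Procr, and for Proc the siAcly libraries were close to each other.

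The members below siC Ut are genes of hepatocytes, each over 1000 in every liver library. Proc and Serpind1, which lay above siC Ut, were over 1000 in every liver library too. Fga was at 46.4, 183 and 129 in siAcly and 1018, 358 and 500.0 in siC, a log2 fold change of -2.45 (adjusted p = 0.419). Fgb was at 19.3, 95.7 and 117 against 664, 195 and 377, and F2 at 5.22, 28.3 and 12.96 against 68.9, 44.1 and 34.5, with log2 fold changes of -2.58 (adjusted p = 0.382) and -1.82 (adjusted p = 0.453). Vtn was at 7.28, 43.96 and 29.7 against 810, 139 and 247, a log2 fold change of -3.76 (adjusted p = 0.344). F12, which starts the contact pathway, was listed at 0 in the 3 siAcly libraries and at 5.36, 0.843 and 3.44 in siC. Its separation rests on a few reads, since 1 read takes a value of about 0.848 in siC Ut library 2. All these F12 values were under the filter value of 10, which F12 reached only in libraries of other groups. Library 84 was the lowest of the 6 for Fga, Fgb, F2 and Vtn. The median log2 fold change of the 10 factors in Ut was -2.05, beside -0.03 over all genes. Under the inhibitors that median was -0.07 in HC, 0.33 in SB and -0.95 in Bemp. The siC Ut group held no library numbered 81 to 87 whereas siAcly Ut held 1, library 84. Library 1 of siC Ut was in the band with the highest Fga, and siAcly Ut held no library of that band. The part of this imbalance in the lower values was not tested. With the series as a covariate Plat (1.31, adjusted p = 0.0234) and Plau (1.35, adjusted p = 0.0458) passed in Ut, in a fit that called 1.53% of all genes there against 0.187%. Leaving out siAcly Ut library 14 gave 4 members in Ut, namely Plat, Plau, Plaur and Procr, with 2.44% of genes called.

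No member passed for any of the ACLY inhibitors. HC, SB and Bemp against Ut gave 0% of genes called in siC cells and 0% in siAcly cells by limma, with 42, 70 and 240 genes at an unadjusted p under 0.05 in siC and 271, 1648 and 314 in siAcly. Those genes included 3 members, all for Bemp in siC: Plat at 0.71, Plau at 0.98 and Procr at 0.84 (adjusted p = 0.927 for each). The siC Bemp group included the library labelled siC Bemp 11, whose Acly was as low as after siAcly, and without it they were at 0.63, 0.94 and 0.65 (adjusted p = 0.957 for each). The difference of the inhibitor effect between siAcly and siC cells was tested as well, and no member passed for HC, SB or Bemp.

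In soleus the members were those of vessels and stroma, plus traces of the liver members. None of the 17 members tested passed in HC against Ut, 0% of the 12067 genes were called, and 609 genes with 2 members had an unadjusted p under 0.05. Procr, the protein C receptor of endothelium, was at 53.7, 64.9, 96.7, 57.8 and 55.3 with HC and at 44.5, 44.1, 49.4, 38.4 and 52.4 in Ut. All 5 HC muscles lay above all 5 Ut muscles, by a narrow margin apart from library 77. The log2 fold change was 0.48 (95% interval 0.11 to 0.86, adjusted p = 0.906), and 1.1% of all genes had groups that did not overlap. The endothelial markers summed to 4360 to 5564 with HC and 4553 to 6093 in Ut.

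F3, F13a1 and Thbd had higher means with HC and one HC library that went the other way. F3 was at 34.5, 97.3, 69.8, 93.1 and 76.8 with HC and between 45.7 and 52.1 in Ut. F13a1 was at 19.97, 104.15, 92.2, 88.6 and 144 with HC and between 41.6 and 61.2 in Ut. The first value in each list is that of library 75, below all Ut muscles, and the other 4 lay above all of them. Thbd was at 315, 751, 769, 761 and 463 with HC and between 367 and 575 in Ut. Here 3 HC libraries lay above and library 75 below the Ut range. The log2 fold changes were 0.50 (95% interval -0.01 to 1.01) for F3, 0.54 (-0.33 to 1.42) for F13a1 and 0.26 (-0.24 to 0.76) for Thbd. Without library 75 they were 0.75 (adjusted p = 0.0970), 1.01 (adjusted p = 0.0903) and 0.48 (adjusted p = 0.287), and none passed. The macrophage markers summed to 233 in HC library 75, to 699 to 1176 in the other HC libraries and to 340 to 604 in Ut. The fibroblast markers summed to 2272 in library 75, to 4119 to 8683 in the other HC libraries and to 2656 to 4169 in Ut. Their part in these values was not tested.

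Of the liver members seen in soleus, 6 were high where other plasma protein genes were high. Fga, Fgb, Fgg, Kng1, Plg and Serpinc1 summed to 230.03 in Ut library 70 and to 48.5 to 84.8 in the other Ut libraries, where albumin and 3 other plasma protein genes of the liver summed to 1665 and to 270 to 492. In HC libraries 75 and 79 the 6 members summed to 147 and 154 with 902 and 820 for the plasma protein genes, and in HC libraries 76, 77 and 78 they summed to 5.60 to 8.46 with 23.04 to 59.03. The 2 sums were thus high in the same libraries. F2 was less variable, at 41.6, 28.8, 28.98, 23.5 and 41.3 with HC and 66.99, 26.2, 31.9, 40.5 and 35.5 in Ut, and in libraries 76, 77 and 78 it exceeded the sum of the other 6. The part of liver RNA in these values was not tested. Fga was the second member with an unadjusted p under 0.05, at -1.61 (95% interval -3.16 to -0.06, adjusted p = 0.972). Of the partners 19 were tested and none passed, and the most abundant, Tgm2 (a transglutaminase) and Gas6 (a vitamin K-dependent ligand), differed by 0.02 and 0.14.

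In gastrocnemius the first question was what toxin injury does to the local members. At 2 DPI without HC, no member of 18 tested passed against C and 0% of the 14033 genes were called by limma, although 2095 genes, among them 4 members, had an unadjusted p under 0.05. Thbd, the thrombin receptor that turns thrombin toward protein C, was at 567, 425 and 731 in C and at 3067, 1551 and 938 after CTX, all 3 above the C libraries (log2 fold change 1.55, adjusted p = 0.242). Vtn was at 196, 270 and 284 in C and at 114, 81.5 and 130 after CTX. All 3 CTX values lay below the C libraries (-1.21, adjusted p = 0.242). Groups did not overlap for 29.1% of all genes, so the separation of these members was not unusual for the comparison. F7 and F10 differed by 2.43 and 2.66, with overlap, since CTX library 57 stayed within the C range for both. Without that library and CTX-HC 30 DPI 62, left out together after the data were seen, still no member passed, with 0.235% of genes called, and F7 differed by 3.47 (adjusted p = 0.0706) and Thbd by 1.96 (adjusted p = 0.0656).

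With injury and HC together, 3 members rose and none fell at 2 DPI against C. They were 2 of 10 factors, F7 and F13a1, and 1 of 4 inhibitors, Thbd. Over all genes 749 rose and 644 fell, which is 5.34% called higher and 9.93% in either direction. The median log2 fold change of the 18 members was 0.48, beside 0.02 over all genes. 6 members had CTX-HC libraries that all lay above C, namely F7, F10, F13a1, Thbd, Plau and Plaur, in a comparison in which 50.9% of all genes did not overlap.

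F7, the protease that tissue factor activates, was at 30.0, 2.64 and 11.9 in C and at 283, 169 and 126 in CTX-HC 2 DPI. The lowest injured value was well above the highest C value, and the log2 fold change was 4.01 (SE 0.97, adjusted p = 0.0305). F10, whose product forms the complex that makes thrombin, was at 10.8, 0 and 14.8 in C and at 174, 70.1 and 43.1 in CTX-HC 2 DPI. Its log2 fold change of 3.84 missed the threshold (adjusted p = 0.0503) although the groups were apart. F7 and F10 lie 1.5 kb from each other on chromosome 8, with Proz, the cofactor of an inhibitor of factor X, 4.24 kb farther on. Proz did not pass the filter and was between 0 and 2.10 in the CTX-HC 2 DPI libraries.

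F13a1, the enzyme subunit that crosslinks fibrin, was at 231, 109 and 200 in C and at 2638, 2395 and 454 in CTX-HC 2 DPI. Libraries 58 and 59 were far above library 60, which was itself above all C libraries. The log2 fold change was 3.05 (SE 0.77, adjusted p = 0.0337). Thbd was at 3371, 1759 and 2162 in CTX-HC 2 DPI, all above C, a log2 fold change of 2.06 (SE 0.46, adjusted p = 0.0254). Plau had means of 388 in C and 1087 in CTX-HC 2 DPI, and Plaur of 68.7 and 252 (86.2, 11.8 and 108 in C and 347, 276 and 133 in CTX-HC 2 DPI), with log2 fold changes of 1.36 (adjusted p = 0.0788) and 2.24 (adjusted p = 0.120) that did not pass. Plat, the activator that was higher in siAcly cells, differed by 0.62 here (95% interval -0.54 to 1.77), and Vwf by 0.13 (-0.54 to 0.80). The endothelial members Vwf and Procr thus overlapped C, while Thbd did not.

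These calls depended on single libraries. None of the 3 passed without the first or the second C library listed above or without CTX-HC library 58 or 59, Thbd alone passed without the third C library, and 5 passed without CTX-HC library 60, F10 and Plau being added. The share of all genes called moved too: it was 0.463% and 0.235% without the first and second C library, 2.79% without the third, and 0.278%, 1.19% and 15.3% without CTX-HC libraries 58, 59 and 60, against 9.93% with all libraries. The log2 fold changes in those fits stayed at 3.19 to 4.74 for F7, 2.60 to 3.87 for F13a1 and 1.80 to 2.27 for Thbd. Over all genes, on the first principal component, CTX 2 DPI 57 lay on the side of the C libraries and apart from its group, and CTX-HC 30 DPI 62 lay with the 2 DPI libraries. With these left out together, a choice made after the data were seen, 5 members passed in CTX-HC 2 DPI against C, where 30.8% of all genes did.

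**Figure D5:**
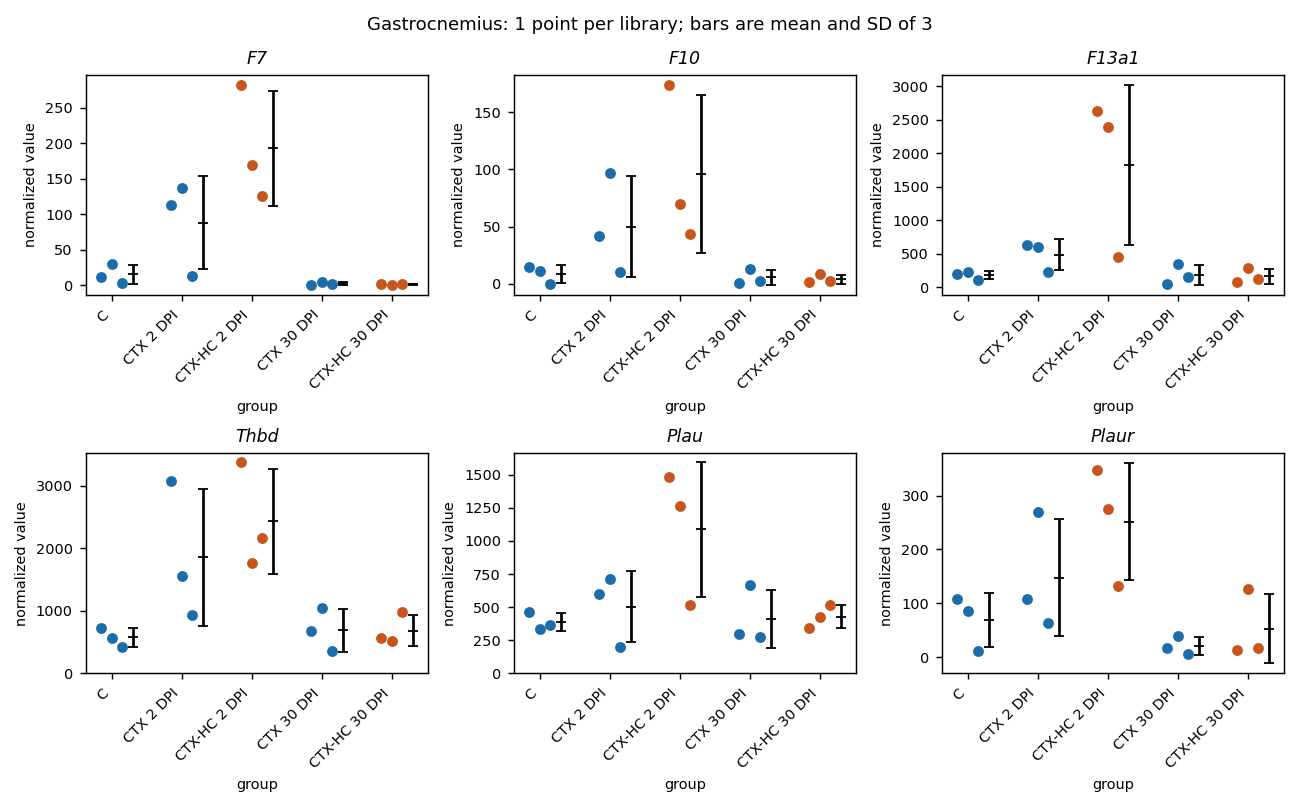
Normalized value of F7, F10, F13a1, Thbd, Plau and Plaur in each gastrocnemius library; points are libraries, horizontal marks with bars the mean and SD of 3, and orange marks the groups given HC. In all 6 panels the 3 CTX-HC 2 DPI points lie above the 3 C points.

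Markers of other cells moved in the same comparison. The 8 macrophage markers summed to 999 to 4412 in C, 2473 to 12284 in CTX 2 DPI and 6914 to 31182 in CTX-HC 2 DPI, and 1 of the 8 passed as higher. The 6 platelet markers summed to 43.0 to 122, 179 to 494 and 277 to 1928, the neutrophil markers to 32.2 to 57.9, 35.6 to 489 and 337 to 1800, and the fiber markers to 2351100 to 3150500, 1629300 to 2463700 and 910260 to 1408900. The fibroblast markers, none of which passed, summed to 9215 to 12655, 21500 to 47538 and 21108 to 82525. Of these lists 1 platelet and 1 neutrophil marker passed as higher and 2 fiber markers as lower, and 2 neutrophil markers were at 0 in all C libraries. The endothelial markers stayed between 5167 and 10214 in these 3 groups. Their part in the changes of F7, F13a1 and Thbd was not tested. Of 21 pathway partners tested, 5 rose and 1 fell. Thbs1, a matrix protein released by platelets, rose by 3.29 (adjusted p = 0.0389). F2rl3, a thrombin receptor, fell by 1.19 (adjusted p = 0.0218).

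The liver members varied between uninjured muscles too. Fga, Fgb, Fgg, Kng1, Plg and Serpinc1 summed to 0, 69.6 and 52.7 in the 3 C libraries and to 2.94, 2.67 and 11.6 in CTX-HC 2 DPI, where the 4 plasma protein genes summed to 7.39, 439 and 243 and to 7.83, 3.34 and 13.2. The same C library was low in both sums. Fga differed by -2.20 (95% interval -5.61 to 1.21), which does not separate the groups.

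HC itself was tested against CTX alone at the same time point. At 2 DPI 0% of genes were called and no member passed, with 1005 genes and 2 members at an unadjusted p under 0.05, so the passes against C in CTX-HC and not in CTX are not shown to differ. The 2 members were F13a1 at 1.69 (95% interval 0.03 to 3.35) and Plau at 1.16 (0.09 to 2.22), each with adjusted p = 0.662. Plau was at 600, 712 and 203 in CTX 2 DPI and at 1485, 1263 and 515 in CTX-HC 2 DPI. No member had groups without overlap, whereas 13.5% of all genes did. Thbd differed by 0.51 (-0.48 to 1.49) and F7 by 1.58 (-0.50 to 3.67).

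At 30 DPI no member passed in any comparison. CTX against C, CTX-HC against C and CTX-HC against CTX gave 0%, 0% and 0% of genes called by limma, with 437, 388 and 106 genes and 1, 1 and 0 members at an unadjusted p under 0.05. F7 was that member in both comparisons with C. It was at 4.75, 2.08 and 0 in CTX 30 DPI and at 1.84, 1.02 and 0 in CTX-HC 30 DPI, where all 3 libraries lay below C (log2 fold change -2.66, adjusted p = 1.00). The values rest on a few reads. In that comparison 489 of the 14033 genes tested lay wholly below C and 662 wholly above. F13a1, at 185.7 and 163 in the 2 means, and Thbd, at 690 and 685, were close to their C means of 179.9 and 574. The difference of the HC effect between 30 and 2 DPI was called for 0% of genes, and for no member.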

How the data were processed

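RNA-seq values of liver, soleus, gastrocnemius and AML12 cells were analysed in 59 libraries. Per the labels and methods, the authors trimmed the reads, aligned them to mm10 and normalized gene counts with DESeq by the median of ratios within each table. The deposited values are these normalized counts (a signal, not whole numbers), so a count model was not used. Within each table, log2(value + 1) was fitted with limma 3.58.1 in R 4.3.3, with a trend and with all groups in a single fit. Genes were kept if they reached 10 in a number of libraries equal to the size of the smallest group. Benjamini-Hochberg adjustment was over all genes tested, with a threshold of 0.05. The fit was tested on simulated data. Depth was 7.31 to 34.9 M reads, estimated as a library's sum over its most frequent value between 0 and 2.

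The members and gene lists were chosen with earlier results of these data known. Values of members that passed or did not overlap are given by library, or as the lowest, median and highest in groups of 12. Partners named were the 2 largest rises and falls that passed, or the 2 most abundant. One partner gene is not reported here. Anxa5, and any other gene, was named after its values were seen. Groups came from the labels; no library was left out of the main fits and no column was left unmapped (0). Same-numbered liver samples deviated little together (r 0.0243 to 0.0833). So did those of soleus (r -0.112 to 0.0704) except number 1 (r 0.403), and the numbers were not taken as pairs. Alternatives were pseudocounts of 0.5 and 5, no filter, recomputed median of ratios, quantile normalization, 2-group fits, the library number series, a replicate block and leaving out each library.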

Additional observations from a re-analysis of the deposited data

Results flagged for a closer look

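In 92 groups of 5 libraries (liver and soleus, by member), 8 had a library with a gap to its nearest neighbour that was large for the range of the group, where chance at 1 in 20 gives 4.6. In liver these were F5 in HC library 7 at 5180 (the other 4 were 7552 to 8517), Cpb2 in Ut library 3 at 2444 (1758 to 1916) and Vtn in the same library at 23920 (19755 to 20800). In soleus they were Procr in HC library 77 at 96.7 (53.7 to 64.9), Plau in HC library 75 at 86.4 (156 to 178), and 3 liver members in Ut library 70, with Fga at 38.1 (10.3 to 16.3), Fgb at 51.8 (10.52 to 16.74) and Kng1 at 30.9 (4.58 to 11.1). Library 70 also had the highest sum of plasma protein genes.

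F7 in gastrocnemius lay above C in all CTX-HC libraries at 2 DPI and below C in all of them at 30 DPI (log2 fold change -2.66). Over 13 pairs of contrasts compared it was the 1 member to do so. How many other genes did so was not counted. Groups did not overlap for 50.9% of all genes at 2 DPI, and at 30 DPI 489 of 14033 lay wholly below C and 662 wholly above. That difference was not tested.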

How the results depend on the processing

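Direction was followed for the log2 fold changes of a chosen set of members, and none of these reversed under any alternative. It was not followed for the other members or for the partners. In siAcly against siC over the 4 treatments 7 members (11.7% of all genes) were called with the library number series as a covariate and 7 (13.1%) with only libraries 81 to 87, against 4 (4.77%) in the fit reported, and 3 to 7 when 1 library was left out (7 without siAcly Bemp 23, with 4.99% of genes, or siAcly Ut 14, with 6.69%). In siAcly against siC in Ut cells 2 (1.53%) were called with the covariate and 0 to 4 when 1 library was left out (4 without siAcly Ut 14, with 2.44%). In CTX-HC 2 DPI against C 5 (30.6%) were called with only the 2 groups in the fit, 5 (30.8%) with CTX 2 DPI 57 and CTX-HC 30 DPI 62 left out together (chosen after seeing the data), and 0 to 5 (0.235% to 15.3%) when 1 library was left out, against 3 (9.93%). The cause of these changes was not tested. Pseudocounts, normalization and the filter left the count of members called within 1.5 times in each of the 20 comparisons, Procr being lost without the filter (adjusted p = 0.0580) and F3 (adjusted p = 0.0497) and F10 (adjusted p = 0.0302) gained with quantile normalization. With a replicate block, 0 members were called in liver and 0 in soleus, as without it. No paired analysis was made in AML12 and gastrocnemius because their labels carry no replicate numbers. The library number series set apart only the lowest of the AML12 Fga bands, so as a covariate it left the other bands mixed. Depth limits members at a few reads, such as F7 and F10 in uninjured muscle.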
